A study of Mus musculus with 16 samples.

Results

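A set of 10 genes of hepatic bile acid synthesis, conjugation, transport and control were followed in the livers of mice with and without the kinase Gcn2. They are Cyp7a1, Cyp8b1, Cyp27a1, Cyp7b1, Baat, Slc27a5, Slc10a1, Abcb11, Nr0b2 and Nr1h4, chosen by name as members of the pathway. These members and the other gene lists below were chosen with earlier results of these data known. All 10 of 10 genes were on the array, with 16 probe sets among the 34945 that carry 1 gene symbol, and 10 of the 18193 genes measured. The probe set with the highest mean signal stood for each gene.

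The animals were global Gcn2-/- mice and wild-type littermates, 3 to 6 months old and fed freely. Their livers were perfused in a single pass with medium holding all amino acids or with medium from which methionine was left out. RNA came from the detergent-treated liver supernatant before any gradient, called unfractionated, and from the polysomes, the mRNAs loaded with several ribosomes, that a sucrose gradient separated. Genotype, medium and RNA fraction make 8 groups of 2 Affymetrix arrays, and each array carried RNA pooled from 2 livers, so a replicate is a pool and not an animal. Strain and sex are not given in the labels used here, and the loss of Gcn2 was not restricted to hepatocytes.

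Bile acids are made from cholesterol in hepatocytes. Cyp7a1 is the rate-limiting hydroxylase of the classic route and Cyp8b1 directs its product to cholic acid. Cyp27a1, a mitochondrial sterol side-chain hydroxylase, and Cyp7b1, an oxysterol hydroxylase, form the alternative route. Slc27a5 activates bile acids with coenzyme A and Baat joins them to taurine or glycine. Taurine itself derives from the sulfur amino acids methionine and cysteine. Slc10a1 takes conjugated bile acids up from blood with sodium and Abcb11 pumps them into the canaliculus. Nr1h4 is the bile acid receptor FXR, and its target Nr0b2, known as SHP, represses Cyp7a1 and Cyp8b1. Gcn2 is the eIF2 kinase that uncharged tRNA activates when an amino acid is scarce.

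Stretches of sequence before the start sites are printed for Cyp27a1, Slc10a1, Cyp8b1 and Abcb11. Cyp27a1 and Slc10a1 are the members called higher without methionine in polysome RNA of wild-type livers, calls that depended on scaling and on single arrays. The windows of Cyp8b1 and Abcb11 hold the HNF4A letters and the half-site. RefSeq sequences (GRCm38.p6) were matched by symbol for 6 of the 10 genes, 7 start sites in all, since Slc10a1 has 2. Each line gives the 250 bases before a start, 5′ to 3′ on the gene's strand. Capitals mark matches, on either strand, to the nuclear receptor half-site AGGTCA, the HNF4A letters CAAAGTCCA or the TATA letters TATAAA.
Cyp27a1, chr1:74713285-74713534, strand plus: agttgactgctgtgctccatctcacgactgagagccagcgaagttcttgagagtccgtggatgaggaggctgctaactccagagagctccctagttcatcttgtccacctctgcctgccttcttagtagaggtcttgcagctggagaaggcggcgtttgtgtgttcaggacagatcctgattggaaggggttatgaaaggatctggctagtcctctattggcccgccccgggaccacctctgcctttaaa
Slc10a1, chr12:80968706-80968955, strand minus: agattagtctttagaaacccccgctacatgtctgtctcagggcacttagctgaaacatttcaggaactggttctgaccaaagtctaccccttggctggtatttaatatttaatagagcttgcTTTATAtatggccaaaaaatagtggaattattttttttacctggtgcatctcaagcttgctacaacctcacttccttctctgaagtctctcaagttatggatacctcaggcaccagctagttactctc
Slc10a1, chr12:80968080-80968329, strand minus: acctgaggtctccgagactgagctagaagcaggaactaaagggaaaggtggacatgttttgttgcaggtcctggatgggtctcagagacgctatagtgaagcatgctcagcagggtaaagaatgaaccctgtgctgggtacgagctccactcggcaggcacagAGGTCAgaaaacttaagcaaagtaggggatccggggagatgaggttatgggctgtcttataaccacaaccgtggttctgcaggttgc
Cyp8b1, chr9:121916306-121916555, strand minus: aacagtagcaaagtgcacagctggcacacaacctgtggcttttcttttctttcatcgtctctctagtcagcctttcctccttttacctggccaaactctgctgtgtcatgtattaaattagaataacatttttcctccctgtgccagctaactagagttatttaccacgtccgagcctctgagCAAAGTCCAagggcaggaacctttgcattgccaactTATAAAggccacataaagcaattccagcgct
Abcb11, chr2:69342617-69342866, strand minus: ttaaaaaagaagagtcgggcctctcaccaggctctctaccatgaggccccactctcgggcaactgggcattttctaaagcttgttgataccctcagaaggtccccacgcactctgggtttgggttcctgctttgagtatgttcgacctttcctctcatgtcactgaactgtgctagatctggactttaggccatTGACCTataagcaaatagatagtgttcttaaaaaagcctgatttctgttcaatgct

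Counted back from the start, the Cyp8b1 window holds CAAAGTCCA at bases -67 to -59 and TATAAA at -31 to -26. The first of these is a letter string found in 0.384% of the 32851 RefSeq promoters of the same length. The Abcb11 window holds the half-site on the other strand at -56 to -51, and the second Slc10a1 window holds it as listed at -87 to -82. The Nr1h4 window holds it on the other strand at -214 to -209. TATAAA also stands in the Nr0b2 window at -28 to -23 and, on the other strand, in the first Slc10a1 window at -128 to -123. Of all promoters 14.0% hold that half-site and 12.4% hold TATAAA. The inverted repeat of the half-site spaced by 1 base, the form FXR is known to bind, present in 0.00609% of promoters, and the amino acid response core TGATGNAA, present in 3.45%, were in none of the 7 windows searched on both strands. The E-box CACGTG, present in 6.02%, was in the Nr0b2 window alone, at -195 to -190. A match describes letters in a window and was not tested as a site, and no match speaks to these letters in this window alone. Only exact letters were searched. In the Abcb11 window the half-site at -56 to -51 ends a stretch that differs from the FXR inverted repeat at 1 base. Repeats with 1 differing base were neither searched for in the other windows nor counted over all promoters, so how unusual this is was not tested. The exact repeat is so rare among promoters that its absence from 7 windows does not show that FXR-type repeats are missing there.

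The deposited values are linear Affymetrix signals that had been scaled to one trimmed mean of about 150.0 on every array. A signal of 80 was reached by 26.9% to 28.5% of the probe sets on an array, and replicate arrays correlated at 0.968 to 0.976 across genes. The targeted gene, Eif2ak4, had signals of 62.9 to 104 in the 8 wild-type arrays and of 21.2 to 52.9 in the 8 knockout arrays, a log2 difference of -0.84 ± 0.15 (limma, adjusted p = 0.00400), though the place of the probes relative to the deleted part of the gene is not stated. Hepatocyte markers were high, with a summed signal of 78164 to 108275 over the 7 measured of 8, and all 6 measured cholangiocyte markers had medians under 80. In RNA of whole tissue, fewer cells of a type and less RNA per cell cannot be told apart.

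Differences were tested with limma on log2(signal + 16) over 10916 genes, with the 8 groups in one fit, and Benjamini-Hochberg adjustment within each comparison, at a threshold of 0.05. All differences below are log2 with the standard error of the fit. The plot of signals on every array shows all 10 members.

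**Figure D1:**
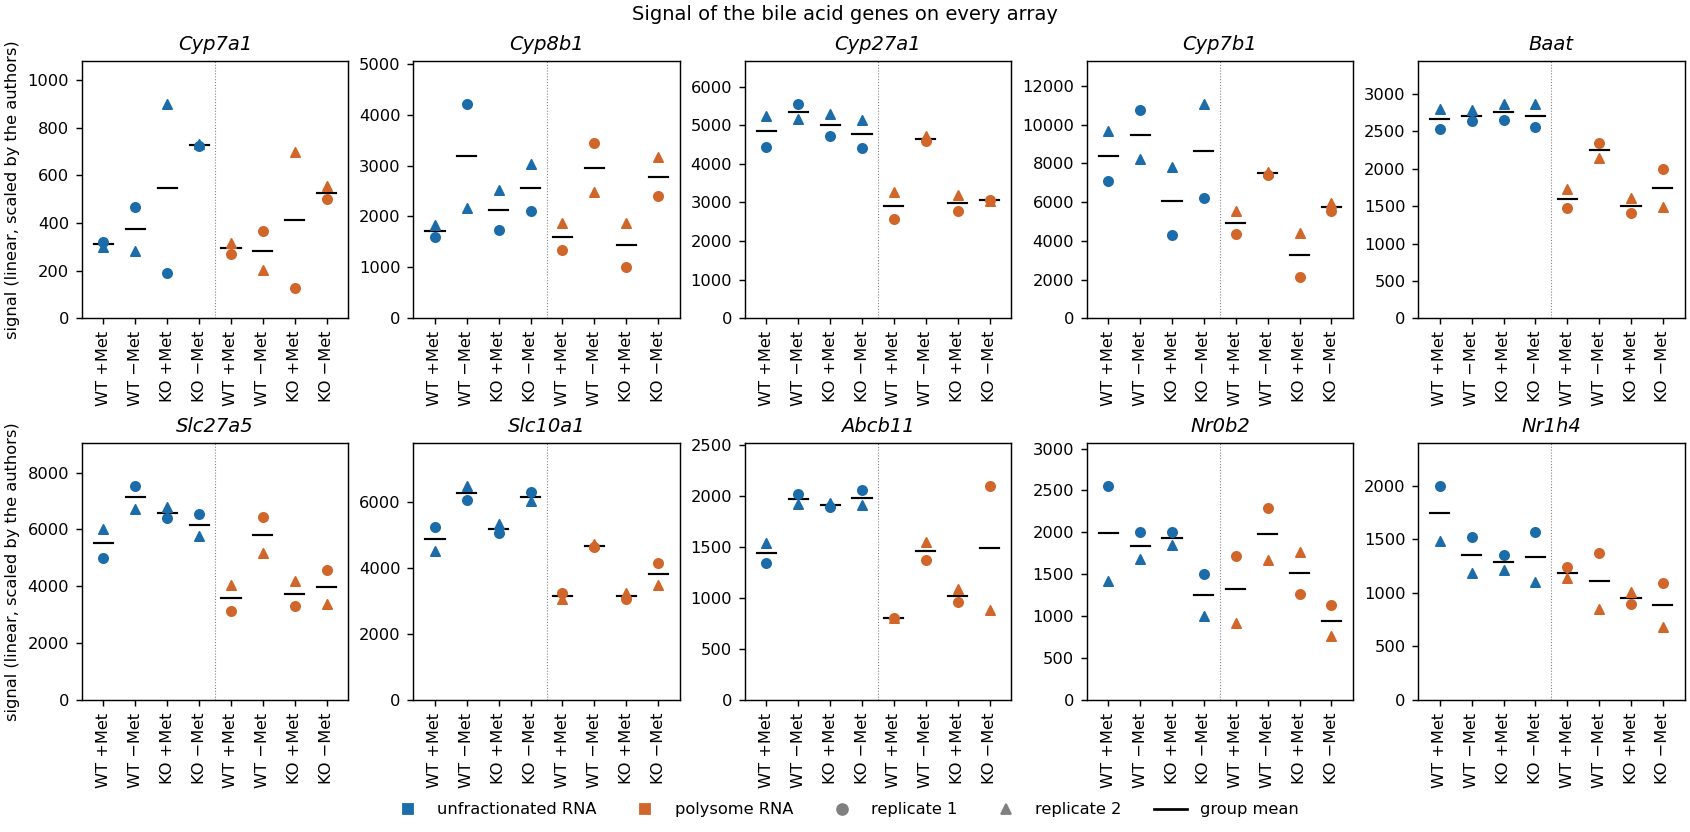
Linear signal (y axis, as scaled by the authors) of the 10 genes in the 8 groups (x axis), with circles for replicate 1, triangles for replicate 2 and a bar at the group mean. Polysome signals (orange) of Baat all lie below its unfractionated signals (blue), and Cyp7a1 spans 127 to 900 within the knockout groups given methionine.

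The 4 sterol hydroxylases differed in how steady they were. With the 8 groups pooled, Cyp7a1 was among the most variable genes on the arrays and Cyp27a1 among the steadiest. The rank of Cyp7a1 rested largely on the knockout livers given methionine. Replicate arrays of Cyp7a1 differed there by 2.14 in unfractionated and 2.33 in polysome RNA on the log2 scale. In the other groups they differed by 0.02 to 0.81. The SD of Cyp7a1 within groups was 0.84 on the log2 scale, at percentile 99.4 of the genes tested, against a median gene's 0.26. That of Cyp8b1 was 0.42 and that of Cyp7b1 0.43, at percentiles 83.5 and 85.0, while that of Cyp27a1 was 0.14, at percentile 8.41. Among the conjugation and transport genes the SD was 0.09 for Slc10a1, at percentile 1.33, and 0.15 for Baat, at percentile 11.0. Slc27a5 stood at percentile 30.9 and Abcb11 at 67.3. The regulators Nr0b2 and Nr1h4 stood at 82.0 and 64.9.

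The spread of Cyp7a1 followed the numbered pools. In unfractionated RNA of wild-type livers its signals were 319 and 301 with methionine and 466 and 282 without. In knockout livers they were 191 and 899.5 with methionine and 722 and 729.9 without. The lowest and the highest of these 8 values thus belong to one group, the knockout livers given methionine.

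Polysome RNA showed the same layout. The Cyp7a1 signals there were 269.8 and 318 in wild-type livers with methionine and 366 and 201 without, and 127 and 699 and 501 and 555 in knockout livers. Replicate 1 of the knockout livers given methionine was again lowest and replicate 2 highest. Apart from that pool, every knockout array read 501 or more and every wild-type array 466 or less. Ordered by mean linear signal, the wild-type groups were the 4 lowest, but not by mean log2 signal. On that scale knockout polysome RNA with methionine, at 8.32, lay below unfractionated wild-type RNA with methionine, at 8.35, and without, at 8.57. The group of the discordant pools overlapped all wild-type groups in both fractions. The second Cyp7a1 probe set ranged from 79.4 to 548 and followed the first with r = 0.957 over the 16 arrays.

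**Figure D2:**
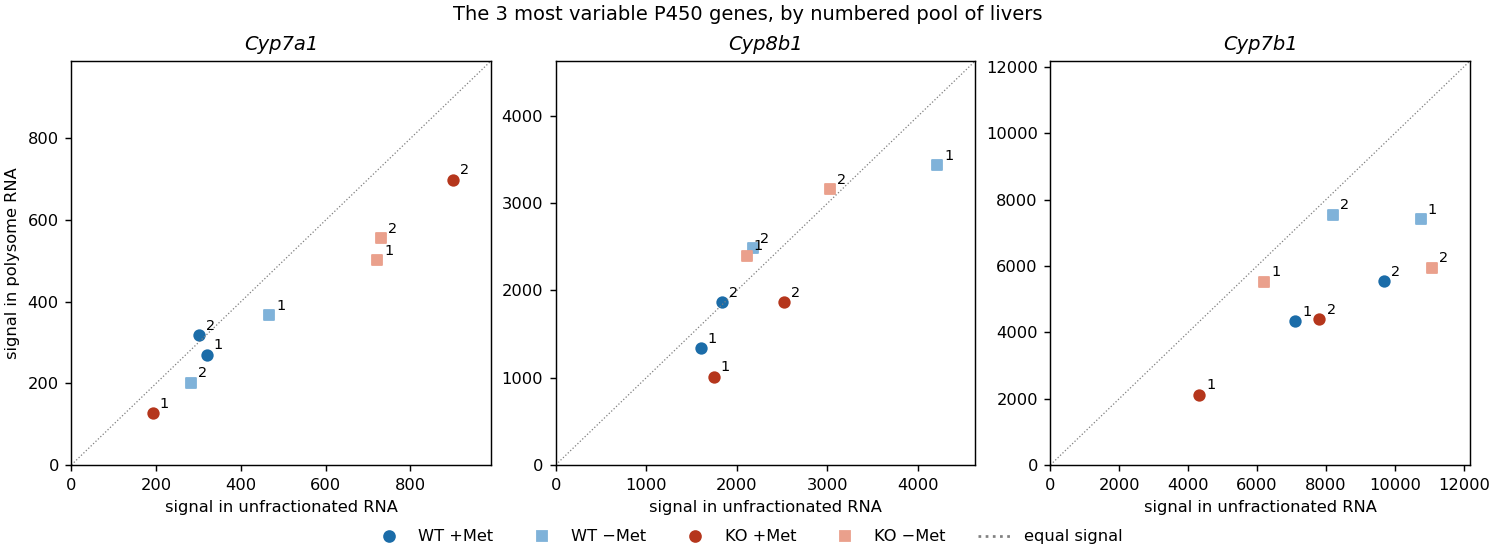
Polysome signal (y axis) against unfractionated signal (x axis) of Cyp7a1, Cyp8b1 and Cyp7b1, with 1 point for each numbered pool and the dotted line at equal signal. The pools keep nearly the same order in both fractions for Cyp7a1, where replicate 1 of the knockout livers with methionine is lowest at 191 and 127.

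Genes of the circadian clock also varied between pools. Dbp, a clock output factor known to act on Cyp7a1, read 3104 and 584 in unfractionated wild-type RNA with methionine and 64.1 and 202 without. In knockout RNA it read 240.2 and 29.5 with methionine and 1938 and 109 without. The knockout pool with low Cyp7a1 had the higher Dbp of its group and the pool with high Cyp7a1 the lower. Nr1d1, a clock repressor, read 463 and 156 in those 2 pools, and the clock activator Arntl read 274 and 352. Over the 16 arrays, which share pools, Cyp7a1 correlated with Dbp at r = -0.31. The time of day of the perfusions is not given in the labels used here, and the part of the clock in the spread of Cyp7a1 was not tested.

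Loss of Gcn2 was the comparison of the 8 knockout arrays with the 8 wild-type arrays. The fit counted both fractions of a pool as separate arrays, although same-numbered arrays appeared to share a pool. Its standard errors and p-values here may therefore be too small. With the pool as a random block no member's call changed in this comparison. No member passed, and 8 of the 10 differences were negative, with a median of -0.11 against 0.00 over all genes tested. Of all genes 4.24% passed, 2.05% higher and 2.19% lower. The count of members at an unadjusted p under 0.05 was 3, namely Cyp27a1, Cyp7b1 and Nr0b2. The wild-type and knockout arrays overlapped for all 10 members, while 0.293% of genes were apart upward and 0.376% downward. Kupffer cell markers were negative in 8 of 8 tested, with a median of -0.29 and 1 called, and their summed unfractionated signal was 2304 to 2598 in wild-type and 1231 to 1704 in knockout arrays. Of the 12 acute phase genes 4 were lower in knockout livers. The part of either list in the members' differences was not tested.

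Cyp7a1 ran from 201 to 466 with a median of 309 in the 8 wild-type arrays and from 127 to 899.5 with a median of 627 in the 8 knockout arrays. The knockout range enclosed the wild-type range. The difference was 0.59 ± 0.31 (95% interval -0.07 to 1.24, limma adjusted p = 0.345). Leaving out the low knockout pool gave 1.15 and leaving out the high one 0.03, so the value depended on these 2 pools. Leaving out pools was chosen after seeing the data, and it leaves 1 array in each group of that pool, assumed to vary like the other groups.

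Cyp7b1 ran from 4337 to 10747 with a median of 7481 in wild-type arrays and from 2119 to 11069.5 with a median of 5737 in knockout arrays. Both the lowest and the highest of its 16 signals were in knockout livers. The difference was -0.44 ± 0.17 (95% interval -0.79 to -0.09, limma adjusted p = 0.168). It became -0.68 without replicate 2 of the knockout livers given methionine.

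The 2 nuclear receptors leaned the same way without passing. Nr0b2 differed by -0.34 ± 0.16 (limma adjusted p = 0.276), and by -0.56 without replicate 2 of the wild-type livers given methionine. Nr1h4 differed by -0.27 ± 0.13 (adjusted p = 0.293). The transporter Abcb11 differed by 0.16 ± 0.13 (adjusted p = 0.586), and by 0.32 (adjusted p = 0.0313) without one polysome array of knockout livers lacking methionine, replicate 2. Cyp8b1, Baat, Slc27a5 and Slc10a1 lay between -0.11 and -0.06, and Cyp27a1 at -0.17 (adjusted p = 0.264).

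Among 56 other listed genes of the pathway, 51 were measured and 43 tested, and 5 passed with loss of Gcn2. Foxa2, a liver transcription factor that acts on bile acid transport genes, was higher by 0.94 ± 0.13 (limma adjusted p = 0.000345). Also higher were Nr1i3, the xenobiotic receptor CAR, by 0.45 ± 0.09 (adjusted p = 0.00863) and the microsomal epoxide hydrolase Ephx1 by 0.34 ± 0.08 (adjusted p = 0.0249). The peroxisomal transporter Abcd3 was lower, at -0.53 ± 0.11 (adjusted p = 0.00992), as was the canalicular conjugate pump Abcc2, at -0.96 ± 0.24 (adjusted p = 0.0283). With every array scaled to one median, Nr1i3 (adjusted p = 0.167) and Ephx1 (adjusted p = 0.315) did not pass. Abcc2 passed in 18 of 37 alternatives, losing its call without any 1 of 9 single arrays.

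Polysome RNA against unfractionated RNA gave the clearest differences. Of the 10 members 7 were lower in polysome RNA, relative to the other mRNAs on the array, and none was higher. They were the alternative-route hydroxylases Cyp27a1 and Cyp7b1, both conjugation genes, both transporters and the receptor Nr1h4. All 10 differences were negative under the deposited, median and quantile scalings, with a median of -0.59 as deposited against 0.02 over all genes. After quantile normalization the members' median was -0.34 and 6 passed. Of all genes 31.4% passed, 16.6% higher and 14.8% lower.

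The uptake transporter Slc10a1 ran from 4513 to 6508 with a median of 5688 over the 8 unfractionated arrays and from 3066 to 4746 with a median of 3377 over the 8 polysome arrays. The ranges met only at the wild-type polysome arrays lacking methionine and the lowest unfractionated array. The difference was -0.61 ± 0.07 (limma adjusted p = 1.1e-05), 1.53-fold lower.

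The conjugating enzyme Baat ran from 2528 to 2866 with a median of 2719 in unfractionated and from 1406 to 2348 with a median of 1667 in polysome arrays. Its ranges did not touch, the only such member, as for 2.69% of genes in this direction and 2.34% in the other. The difference was -0.63 ± 0.08 (adjusted p = 5.0e-05).

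Its partner Slc27a5 ran from 5013 to 7542 with a median of 6468 in unfractionated and from 3126 to 6447 with a median of 4124 in polysome arrays, and Cyp27a1 ran from 4402 to 5549.6 with a median of 5141 and from 2576 to 4725 with a median of 3136. For both genes the highest polysome values were those of wild-type livers lacking methionine, and those reached the unfractionated range. Slc27a5 differed by -0.60 ± 0.09 (adjusted p = 0.000237) and Cyp27a1 by -0.58 ± 0.08 (adjusted p = 6.0e-05).

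The bile salt pump Abcb11 ran from 1338 to 2053 with a median of 1915 in unfractionated arrays and from 799.8 to 2099 with a median of 1022 in polysome arrays. A single polysome array, replicate 1 of knockout livers lacking methionine, held the highest value of all 16. The difference was -0.67 ± 0.13 (adjusted p = 0.00125), while those of Cyp7b1 and Nr1h4 were -0.63 ± 0.17 (adjusted p = 0.00850) and -0.47 ± 0.13 (adjusted p = 0.0126).

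The classic-route hydroxylases and Nr0b2 did not pass. Cyp8b1 had a difference of -0.16 ± 0.16 (95% interval -0.51 to 0.19, adjusted p = 0.509). Cyp7a1 differed by -0.34 ± 0.31 (95% interval -0.998 to 0.31, adjusted p = 0.444) and Nr0b2 by -0.32 ± 0.16 (95% interval -0.66 to 0.03, adjusted p = 0.154). All 3 intervals reach below the difference of Nr1h4.

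Because same-numbered arrays shared deviations, the 2 fractions of a pool could be set against each other, as 8 pairs. Cyp27a1, Cyp7b1, Baat, Slc27a5, Slc10a1 and Nr1h4 were lower in polysome RNA in 8 of 8 pairs, as 8.88% of genes were, with 10.8% higher in all. Cyp7a1, Abcb11 and Nr0b2 were lower in 7 of 8 pairs and Cyp8b1 in 4 of 8. Paired differences of Slc10a1 ran from -0.78 to -0.39 and those of Cyp7b1 from -1.02 to -0.12. For Cyp27a1, Slc27a5 and Slc10a1 the 2 smallest drops were those of wild-type livers lacking methionine.

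**Figure D3:**
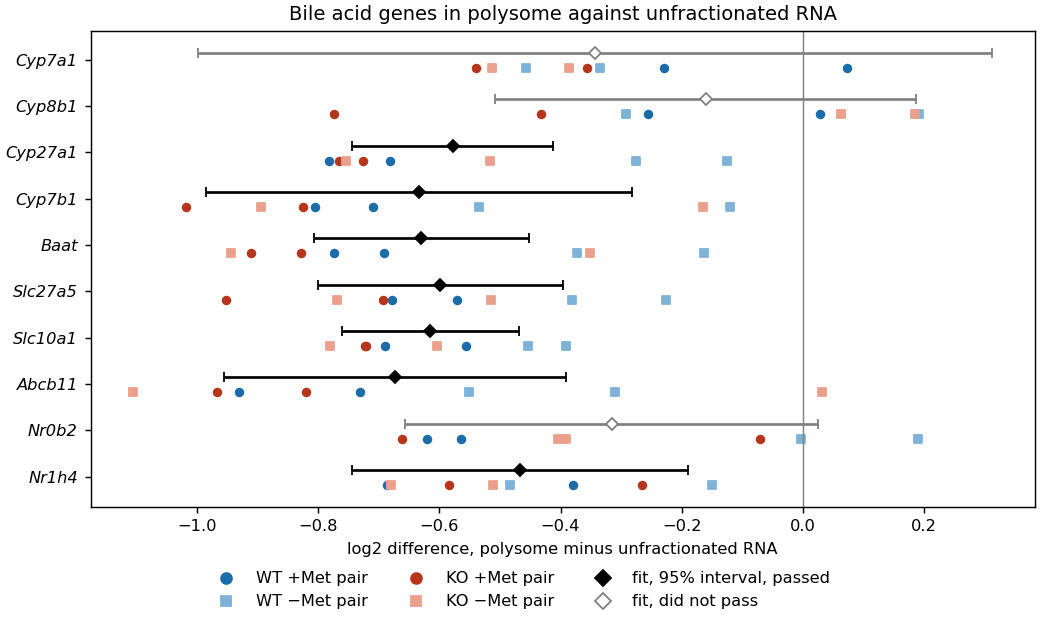
Log2 difference of polysome minus unfractionated signal (x axis) for the 10 genes, with a colored point for each of the 8 numbered pairs and a diamond with its 95% interval for the fit. Filled diamonds mark the 7 genes that passed, from -0.47 to -0.67, and all 10 diamonds lie left of 0.

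On the deposited scale, bright genes as a class were more often lower on polysomes, and this was not counted under the other scalings. Among the 1345 genes at least as bright as the dimmest member that passed, 52.6% passed, 34% lower and 18.6% higher, and the median was -0.08. Hepatocyte markers were lower in 3 of 7, with a median of -0.16, but 0.01 after quantile normalization, when none passed. Of the Kupffer cell markers 7 of 8 tested were lower, with a median of -0.78 and a summed signal over the 10 markers of 1231 to 2598 in unfractionated and 771 to 1427 in polysome RNA. Their part in the members' differences was not tested.

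Under quantile normalization Cyp27a1, Slc27a5 and Slc10a1 still passed but at -0.34, -0.31 and -0.34, and Cyp7b1 did not pass, at -0.33 (limma adjusted p = 0.174). Nr1h4 did not pass without replicate 1 of the knockout livers given methionine, at -0.43 (adjusted p = 0.0580).

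The other pathway genes are given by role, and differences between roles were not tested. On the deposited scale 14.8% of all genes were lower and 16.6% higher, and among the bright genes 34% and 18.6%. Of the other synthesis and conjugation genes 8 of 14 tested were lower on polysomes and 0 higher, but 4 were lower after median scaling, and 4 lower and 1 higher after quantile normalization, when the list's median moved from -0.22 to -0.03. Of the other transporters 5 of 13 were lower and 0 higher, with 5 and 6 lower under those scalings. Of the other regulators 6 of 16 were higher and 1 lower, with 4 and 1 after median scaling and 5 and 2 after quantile normalization. The counts over all 43 were 6 higher and 14 lower, and 6 and 12 after quantile normalization or 4 and 10 after median scaling.

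Among the transporters the basolateral anion carriers Slco1b2 (-0.59 ± 0.09, limma adjusted p = 0.000109) and Slco1a1 (-0.64 ± 0.10, adjusted p = 0.000161) fell, with the canalicular phospholipid floppase Abcb4 (-0.57 ± 0.10, adjusted p = 0.000360). The peroxisomal side-chain oxidase Acox2 was lower, at -0.54 ± 0.09 (adjusted p = 0.000428).

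The regulators that were higher included Rxra, the partner receptor of FXR, by 0.81 ± 0.11 (limma adjusted p = 4.3e-05). Hnf4a, a hepatocyte factor that acts on Cyp7a1 and Cyp8b1, was higher by 0.56 ± 0.07 (adjusted p = 5.1e-05), the oxysterol receptor Nr1h3 by 0.70 ± 0.10 (adjusted p = 6.8e-05) and Nr5a2, an activator of Cyp8b1, by 0.47 ± 0.10 (adjusted p = 0.00268). Within the members, Nr1h4 went the other way. Of these regulators Rxra, Hnf4a and Nr1h3 passed in all 37 alternatives and Nr5a2 in 36.

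Leaving methionine out was compared within each genotype and fraction, to ask how the livers and their polysomes respond to lack of 1 amino acid and whether Gcn2 matters for it. In polysome RNA of wild-type livers 2 members rose, Cyp27a1 and Slc10a1, and 8 of the 10 differences were positive, with a median of 0.62 against 0.02 over all genes. The hepatocyte markers moved with this, positive in 7 of 7 with a median of 0.26 and 0 called in limma, 2 of them at an unadjusted p under 0.05, and a summed signal of 78164 to 87063 with and 95557 to 105157 without methionine. After median scaling 2 of the 7 were positive, with a median of -0.08, and after quantile normalization 4. Their part in the members' differences was not tested. Of all genes 2.57% passed, 1.46% higher and 1.12% lower. In the other 3 settings no member passed.

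In wild-type polysome RNA Cyp27a1 read 2576 and 3263 with methionine and 4580.1 and 4725 without. Both arrays lacking methionine lay above both with it. The difference was 0.68 ± 0.16 (limma adjusted p = 0.0326), a 1.60-fold rise. In unfractionated wild-type RNA Cyp27a1 read 4441 and 5245 with and 5549.6 and 5153 without methionine, which overlapped, with a difference of 0.15 ± 0.16 (adjusted p = 0.935).

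In knockout polysome RNA Cyp27a1 read 2773 and 3198 with methionine and 3074 and 3036 without. Those 4 values overlapped, and all lay below the wild-type values without methionine. The effect there was 0.04 ± 0.16, and the difference of the 2 effects, knockout minus wild-type, was -0.64 ± 0.22 (unadjusted p = 0.0105 in limma, adjusted p = 0.343), which did not pass.

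Slc10a1 in wild-type polysome RNA read 3248 and 3066 with methionine and 4633 and 4746 without. The pairs of arrays were well apart, and the difference was 0.57 ± 0.14 (limma adjusted p = 0.0395), a 1.48-fold rise. In knockout polysome RNA it read 3066 and 3233 with and 4154 and 3506 without methionine, a difference of 0.28 ± 0.14 (adjusted p = 0.591).

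Unfractionated RNA gave Slc10a1 the same order. The wild-type signals were 5249.8 and 4513 with methionine and 6078 and 6508 without, and the knockout signals 5071 and 5339 and 6320.0 and 6036. The arrays lacking methionine were the higher in all 4 settings, although only 1 of the 4 passed. The 4 settings are not independent, since the fractions appeared to share pools. The share of all genes with this order in all 4 was not counted. The unfractionated differences were 0.37 ± 0.14 (adjusted p = 0.590) and 0.25 ± 0.14 (adjusted p = 0.909). The second Slc10a1 probe set followed the first with r = 0.976.

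**Figure D4:**
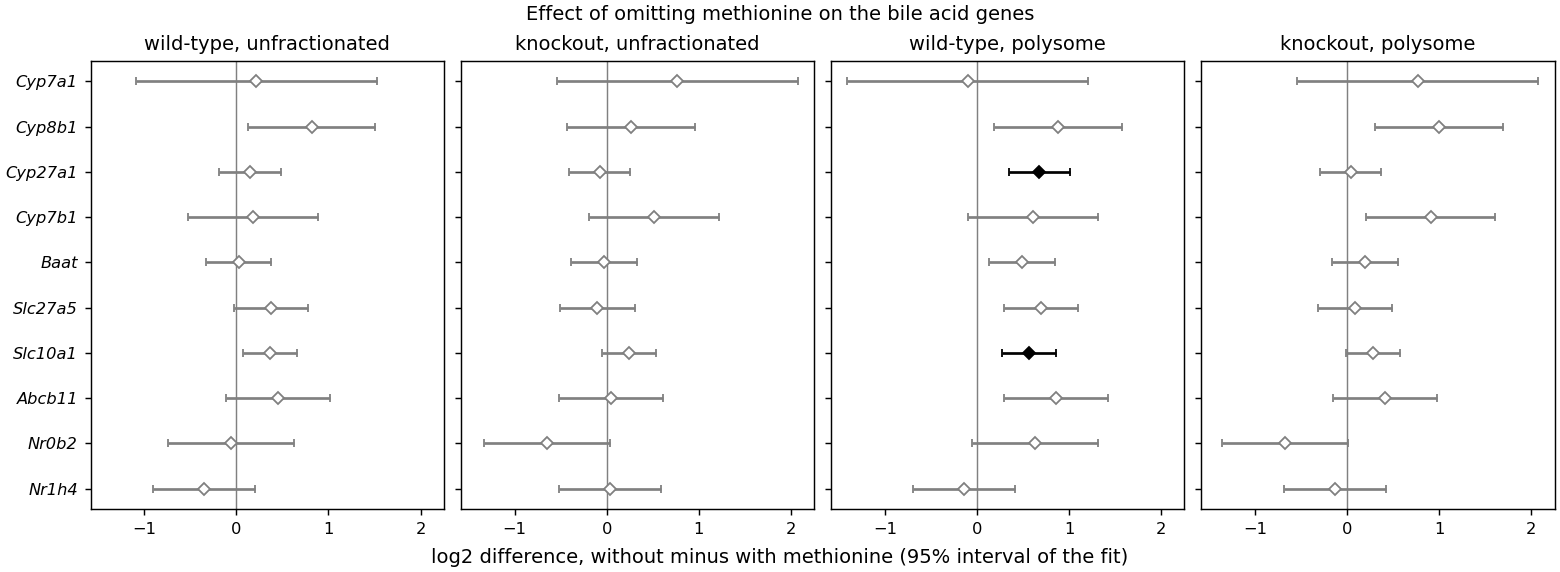
Log2 difference without minus with methionine (x axis) for the 10 genes in the 4 settings of genotype and fraction, with the 95% interval of the fit. Filled points mark the calls, Cyp27a1 at 0.68 and Slc10a1 at 0.57 in wild-type polysome RNA, and open points did not pass.

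Other members pointed the same way in wild-type polysome RNA without passing. Slc27a5 read 3126 and 4054 with methionine and 6447 and 5166 without, a difference of 0.69 ± 0.19 (limma adjusted p = 0.0637), and with the pool of livers as a random block it passed (adjusted p = 0.0495), which made 3 calls. Abcb11 read 800.0 and 799.8 with and 1374 and 1549 without, a difference of 0.85 ± 0.27 (adjusted p = 0.103). Baat differed by 0.49 ± 0.17 (adjusted p = 0.139).

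Counted by array, 7 of the 10 members had both wild-type polysome arrays lacking methionine above both with it, against 24.6% of all genes in this direction and 22% in the other. Those 7 were Cyp8b1, Cyp27a1, Cyp7b1, Baat, Slc27a5, Slc10a1 and Abcb11. Among the 399 genes at least as bright as Slc10a1 and Cyp27a1, 11.8% passed, 8.27% higher and 3.51% lower, and the median was 0.18. Among the other pathway genes 1 of 43 passed, Ephx1, higher by 0.80 ± 0.16 (limma adjusted p = 0.0164), and 33 of 43 differences were positive. After median scaling Ephx1 did not pass, at 0.47 (limma adjusted p = 0.281).

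These calls rested on few arrays and on the scaling. With every array scaled to one median, the median of all genes moved to -0.27, the members' median to 0.28 and no member passed, with Cyp27a1 at 0.34 (limma adjusted p = 0.389) and Slc10a1 at 0.23 (adjusted p = 0.602). The members' median less that of all genes was 0.60 as deposited, 0.55 after median scaling and 0.64 after quantile normalization. Without any 1 of the 4 wild-type polysome arrays neither gene passed, at 0.51 to 0.85 for Cyp27a1 and 0.53 to 0.61 for Slc10a1, and Slc10a1 also lost its call without any 1 of 6 unfractionated arrays, at an unchanged 0.57.

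The arrays of wild-type livers lacking methionine also stood apart in acute phase genes. Of 12 such genes 8 rose in wild-type polysome RNA without methionine, with a median of 1.25 and a summed signal of 50710.4 to 61637 with and 104733 to 144369 without methionine. Saa2, an acute phase apolipoprotein, read 264 and 710.4 with methionine and 3290.1 and 13185 without, against 159.7 and 112 and 214 and 462 in knockout RNA. The part of this response in the members' differences was not tested.

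Cyp8b1 had positive differences in all 4 settings, none of which passed. Its unfractionated wild-type signals were 1599.5 and 1831 with methionine and 4209 and 2173 without, and its polysome signals 1338 and 1868 and 3436 and 2485. In knockout livers the unfractionated signals were 1742 and 2519 and 2107 and 3023, and the polysome signals 1012 and 1863 and 2399 and 3159.9. Arrays lacking methionine were above those with it in 3 of the 4 settings, all but unfractionated knockout RNA. These settings are not independent, since the fractions appeared to share pools, and the share of all genes with this order was not counted.

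The Cyp8b1 differences were 0.82 ± 0.33 in unfractionated and 0.88 ± 0.33 in polysome wild-type RNA, and 0.27 ± 0.33 and 0.99 ± 0.33 in knockout RNA. The smallest adjusted p of these was 0.178 in limma, in wild-type polysome RNA. Cyp7b1 in knockout polysome RNA read 2119 and 4401 with methionine and 5525 and 5949 without, which did not overlap, a difference of 0.90 ± 0.33 (adjusted p = 0.383).

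The differences of the repressor Nr0b2 on polysomes had opposite signs in the 2 genotypes, and neither passed. In wild-type polysome RNA it read 1724 and 916 with methionine and 2289 and 1673 without, which overlapped. In knockout polysome RNA it read 1261 and 1765 with and 1132 and 759 without, where both values lacking methionine were the lower.

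The effects on Nr0b2 were 0.63 ± 0.32 in wild-type and -0.68 ± 0.32 in knockout polysome RNA. The difference of the 2, -1.31 ± 0.45 (95% interval -2.27 to -0.34, unadjusted p = 0.0110, limma adjusted p = 0.347), was the largest in size among the members and did not pass. In unfractionated knockout RNA Nr0b2 read 2004 and 1853 with and 1502 and 1001 without methionine, again lower without, at -0.65 ± 0.32 (adjusted p = 0.876).

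Its activator Nr1h4 lay near 0 or below in wild-type livers, at -0.35 ± 0.26 in unfractionated and -0.14 ± 0.26 in polysome RNA. In knockout livers it was 0.03 ± 0.26 and -0.14 ± 0.26. Cyp7a1 gave 0.22 ± 0.62 and -0.10 ± 0.62 in wild-type and 0.77 ± 0.62 and 0.77 ± 0.62 in knockout livers, with intervals that spanned 0 in all 4 settings. In wild-type polysome RNA that interval was -1.41 to 1.21.

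In unfractionated wild-type RNA 0.0641% of all genes passed, 0.0458% higher and 0.0183% lower, and 0 of 10 members, with 2 members at an unadjusted p under 0.05 in limma. Cyp8b1, Slc27a5, Slc10a1 and Abcb11 had both arrays lacking methionine above both with it, 4 of 10 members against 18.2% of genes, with 20.2% apart downward. In unfractionated knockout RNA 0% of genes passed and 0 members, 0 of them at an unadjusted p under 0.05, with Slc10a1 apart upward, against 18.7% of genes, and Nr0b2 apart downward, against 16.7%. In knockout polysome RNA 0.156% of genes passed, 0.119% higher and 0.0366% lower, and 0 members, 2 of them at an unadjusted p under 0.05. Cyp8b1, Cyp7b1 and Slc10a1 were apart upward there, against 18.8% of genes, and Nr0b2 apart downward, against 18.5%.

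Abcb11 in knockout polysome RNA read 958 and 1085 with methionine and 2099 and 878 without, so its 2 arrays lacking methionine lay on either side of the others. The difference was 0.41 ± 0.27 (adjusted p = 0.708) and became 1.03 without replicate 2 (limma adjusted p = 0.0483). That value rests on 1 array without methionine, assumed to vary like the other groups. In unfractionated knockout RNA the same-numbered arrays read 2053 and 1907.

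Tests of the effect by genotype called no member. In unfractionated RNA 0.0458% of genes passed, 0.0275% higher and 0.0183% lower, and 0 members, 0 of them at an unadjusted p under 0.05 in limma, and in polysome RNA 0.055% of genes passed, 0.0366% higher and 0.0183% lower, and 0 members, with Cyp27a1, Slc27a5 and Nr0b2 the 3 at an unadjusted p under 0.05. The effect in polysome RNA less that in unfractionated RNA passed for 0% of genes in either genotype, with 674 genes in wild-type and 419 in knockout livers at an unadjusted p under 0.05. Cyp27a1 in wild-type livers, at 0.53 ± 0.22 (unadjusted p = 0.0290, adjusted p = 0.773), was the 1 member among them.

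One other transporter of bile acids did differ by genotype. Slc10a2, the sodium-dependent carrier best known from ileum and bile duct cells, read 361 and 292 in unfractionated wild-type RNA with methionine and 193 and 135 without, and 142 and 139 and 416 and 442 in knockout RNA. In polysome RNA it read 191 and 225 and 134 and 143 in wild-type and 70.1 and 53.7 and 697 and 417 in knockout livers. Arrays without methionine were lower in wild-type and higher in knockout livers, with no overlap in any of the 4 settings. Of these 4 differences only that of knockout polysome RNA passed. The settings are not independent, since the fractions appeared to share pools, and the share of all genes with this order was not counted.

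The difference of the effects on Slc10a2 was 2.44 ± 0.34 in unfractionated RNA (limma adjusted p = 0.00885) and 3.38 ± 0.34 in polysome RNA (adjusted p = 0.000393). The rise in knockout polysome RNA was 2.84 ± 0.24 (adjusted p = 3.4e-05). The unfractionated difference kept its call in 21 of 24 alternatives and both polysome values in 24 of 24. The cholangiocyte markers all had medians under 80. Their summed signal ran from 142 to 167 in unfractionated knockout RNA without methionine and from 170 to 198 with it. In knockout polysome RNA it ran from 146 to 158 without methionine and from 111 to 199 with it. The part of bile duct cells in the differences of Slc10a2 was not tested. Slc10a1, its hepatocyte relative, showed -0.12 ± 0.19 and -0.29 ± 0.19 for the same differences.

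Correlations between members over the 16 arrays are given as a description. Baat correlated with Cyp27a1 at r = 0.94 and with Slc27a5 at 0.93, Cyp27a1 with Slc27a5 at 0.93 and Baat with Slc10a1 at 0.91. Abcb11 correlated with Slc10a1 at 0.87, with Slc27a5 at 0.85 and with Baat at 0.84, and Cyp7b1 with Cyp27a1 at 0.78. These arrays share pools and the fraction difference, so the values are a description of these 16 arrays. Cyp7a1 reached at most 0.56, with Cyp8b1, and stood at -0.15 with its repressor Nr0b2. Cyp27a1 and Cyp7b1 each had a further probe set with a signal under 80 on all 16 arrays, which gave no usable level, while the second bright probe set of Cyp7b1 followed the first with r = 0.986 and that of Baat with 0.828.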

How the data were processed

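RNA of 2 livers per array was labelled by a one-cycle biotin protocol, per the labels' protocols. The authors deposited a linear intensity for 45101 probe sets, whose mean after trimming 2% at each end was 150.0 on every array; the signal algorithm and genome build are not given in the sources used here. A deposited table of z ratios was not used. The authors' scaling was kept because array medians, 18.3 to 27.7, lie among dim probe sets.

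Probe sets were named by the supplied annotation, checked against RefSeq genes (0 symbols changed). Probe sets without exactly 1 symbol, 10156 in all and 932 of them with several, were left out. The brightest probe set stood for each of 18193 genes, 9010 of which had more than 1, and the dimmest 40% were not tested. After log2(signal + 16), which shrinks changes of dim genes, limma 3.58.1 in R 4.3.3 fitted the 8 group means (two-sided moderated test with an intensity trend on 8 residual degrees of freedom, adjusted over 10916 genes) for 10 comparisons. Precision is limited by 2 arrays per group. The code was tested on simulated data.

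Whether replicate numbers pair arrays was checked from the data: across genes, deviations of the 2 fractions with the same genotype, medium and number correlated at 0.233, 0.218, 0.317 and 0.184, all over 0.1, so same-numbered arrays were treated as one pool in both fractions; this rests on the data, not on the labels. By the same check the values were -0.02, -0.01, 0.22 and -0.01 for media and -0.06, 0.02, 0.12 and 0.04 for genotypes. Most lay under 0.1, so media and genotypes were not treated as paired. The exceptions were 0.22 in unfractionated knockout RNA and 0.12 in unfractionated RNA without methionine. That media value was above the fraction values of 0.218 and 0.184, so the check did not separate the pairings cleanly. Alternatives were median scaling, quantile normalization, pseudocounts of 1 and 64, no filter, the mean of probe sets, replicate blocks, subsets of arrays and leaving out each array; leaving out each pool and the bright-gene backgrounds were chosen after seeing the data.

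The members and gene lists were chosen with earlier results of these data known. All members were named, up to 4 called genes of the other pathway lists a direction and comparison by smallest adjusted p, and 3 genes most correlated with each member. Python 3.11.15 and matplotlib 3.10.9 made the sequences and plots.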

Additional observations from a re-analysis of the deposited data

Results flagged for a closer look

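Slc10a2 differed between genotypes in its response to leaving methionine out, by 2.44 in unfractionated and 3.38 in polysome RNA, knockout minus wild-type on the log2 scale, by limma's test of the difference itself. In unfractionated RNA its group means were 326 with and 164 without methionine for wild-type mice, and 141 and 429 for knockout mice. In polysome RNA they were 208 and 138, and 61.9 and 557. No member differed in this way past the threshold. With 2 arrays a group, single arrays could not be examined for standing apart from their group.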

How the results depend on the processing

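No member reversed a called direction in any alternative. With the loss of Gcn2, 0 members passed as reported and 1 with the replicate block of number within genotype (Cyp7b1), 0 to 1 when single arrays and 0 to 1 when single pools were left out. In wild-type polysome RNA without methionine the 2 calls became 0 after median scaling and 0 with no filter on dim genes, where more genes were tested. Without the filter the adjusted p in limma was 0.0574 for Cyp27a1 and 0.0804 for Slc10a1. The mean of probe sets left 1 call, as it averages in the dim probe set of Cyp27a1, whose log2 difference became 0.13. Leaving out single arrays changed the calls of Cyp27a1, Slc10a1, Slc27a5 and Abcb11. Those of Slc27a5 and Abcb11 changed without either knockout polysome array lacking methionine. Over 24 alternatives the adjusted p ran from 0.0135 to 0.804 for Cyp27a1 and from 0.0285 to 0.602 for Slc10a1. In knockout polysome RNA 0 calls became 0 to 1 without single arrays (Abcb11). The 7 genes lower on polysomes became 4 in the arrays without methionine alone, namely Cyp27a1, Baat, Slc27a5 and Slc10a1. Where no cause is named, the cause was not tested. Other pathway genes called lower on polysomes turned positive, Cyp2c70 (0.046) and Sult2a8 (0.11) after quantile normalization and Slc10a2 (0.060) in the arrays without methionine alone.

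The replicate block moved counts over all genes by more than 1.5 times: with number within genotype, from 7 to 36 for wild-type unfractionated RNA, 5 to 15 and 6 to 39 for the tests by genotype, 281 to 456 and 17 to 35 for wild-type and knockout polysome RNA, and with the pool block from 7 to 12. The number within genotype ties pools across media, which were not treated as paired, although the check gave 0.22 in unfractionated knockout RNA. Its calls are given for completeness: Cyp7b1 with Gcn2 loss (adjusted p = 0.0227 in limma) and Nr0b2 on polysomes (-0.32, adjusted p = 0.0450). The pool block, whose pairing was inferred from correlated fractions and is not stated in the labels, changed 1 member's call, that of Slc27a5. A setting that leaves out an array leaves its group with 1, assumed to vary like the others.

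Scaling set the split of calls. Higher and lower calls numbered 224 and 239 for Gcn2 loss as deposited and 92 and 188 after median scaling, 159 and 122 against 19 and 225 in wild-type polysome RNA, and 13 and 4 against 2 and 1 in knockout polysome RNA. For polysome against unfractionated RNA they were 1812 and 1615, against 1050 and 1268 after median and 1667 and 1654 after quantile scaling. Other changes over 1.5 times were 5 to 3 with median scaling for the unfractionated test by genotype, 463 to 116 for Gcn2 loss in unfractionated arrays alone, to 171 with methionine alone and to 205 when both polysome arrays of methionine-deprived wild-type livers were left out. In wild-type polysome RNA 281 fell to 187 without a filter and 173 with the mean of probe sets, in knockout polysome RNA 17 became 27 with quantile normalization, 5 without a filter and 10 with the mean of probe sets, and for polysome RNA 3427 fell to 1642 in wild-type, 2216 in knockout and 1055 in arrays without methionine alone, where fewer arrays enter. Without single arrays the counts ran from 316 to 475 for Gcn2 loss, 29 to 385 in wild-type and 1 to 16 in knockout polysome RNA, and 2901 to 3364 for polysome against unfractionated RNA.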

Other observations

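The genes whose log2 signal correlated best with each member over the 16 arrays, which share pools and fractions, are given as a description. Cyp7a1 was followed by Lonrf1 (r = 0.87), Ctps (0.78) and Zbtb1 (0.78), and Cyp8b1 by the apolipoprotein gene Apoa4 (0.87), Cav1 (0.86) and Fosl2 (0.86). Cyp27a1 was followed by Hsdl2 (0.97), Ruvbl1 (0.95) and Hrg (0.94), and Cyp7b1 by the complement gene C6 (0.94), Ugt2b1 (0.87) and Napsa (0.87). For the conjugation genes the closest were the chaperonin subunit gene Cct8 (0.98), Lta4h (0.96) and Eif3m (0.96) with Baat, and the cytochrome gene Cyp2e1 (0.98), Fah (0.95) and Mpp1 (0.95) with Slc27a5. Slc10a1 was followed by Pzp (0.96), Cyp4f15 (0.95) and Kng1 (0.95), and Abcb11 by Afm (0.97), Acsl5 (0.95) and 2700049A03Rik (0.95). With the regulators the values were lower, Slc25a13 (0.86), Snw1 (0.84) and Wdr33 (0.82) for Nr0b2 and the carbohydrate response factor Mlxipl (0.89), Abcf1 (0.88) and Eif4g3 (0.88) for Nr1h4.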
